A study of Mus musculus with 12 samples.

Results

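GATA3-KO J774.1 cells kept in DMSO were compared with WT J774.1 cells kept in DMSO, across all genes. J774.1 is a macrophage-like line from a tumour of a BALB/c mouse, and DMSO is the solvent in which isorhamnetin, a plant flavonol, was given. The members are the 2 GATA3-KO DMSO libraries and the 2 WT DMSO libraries, which are 4 of the 12 libraries of the study. The remaining libraries were Rictor-KO cells in DMSO and GATA3-KO, Rictor-KO and WT cells given isorhamnetin at 10 µM, with 2 libraries each. All cells were harvested after 6 h of DMSO or isorhamnetin, and total RNA was sequenced. The labels do not say how each knockout was made or whether its cells are a single clone. What the lost gene did cannot be told apart from what befell those cells in culture. The labels do not say whether the 2 replicates of a group were grown apart, and the p-values therefore rest on a spread between libraries that could be technical only.

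GATA3 is a zinc finger transcription factor that binds GATA sequences and is best known for directing T helper 2 cells and group 2 innate lymphoid cells. Macrophages sense microbial products through Toll-like receptors, whose signals reach NF-κB and interferon regulatory factors. NF-κB induces cytokines and chemokines, and secreted interferon acts through JAK kinases and STAT factors on genes with an interferon-stimulated response element in their promoters. RICTOR is a defining subunit of mTOR complex 2, a kinase complex that phosphorylates AKT.

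Exon reads numbered 39045328 and 41475472 in the GATA3-KO DMSO libraries, against 37313642 and 38991173 in the WT DMSO libraries. Of 15156 genes with an exon read in any library, 11808 passed the filter on low counts and were tested with edgeR's quasi-likelihood test. Levels are CPM, exon reads scaled to a common library total after correction by the trimmed mean of M values (TMM), and differences are log2 fold changes of GATA3-KO over WT with their standard errors (SE) unless another pair is named. A gene was called at an adjusted p of 0.05, and where a gene is said to rise or fall by a number, the number is its log2 fold change. The WT DMSO libraries stood apart from all others in their scaling factors, which were 1 and 0.992 for GATA3-KO DMSO and 0.912 and 0.913 for WT DMSO. The root mean square log2 distance was 0.188 between the GATA3-KO DMSO libraries and 0.116 between the WT DMSO libraries, and it was 0.626 to 0.701 across these groups. The GATA3-KO DMSO libraries lay nearer to the Rictor-KO DMSO libraries, at 0.377 to 0.463, and the Rictor-KO DMSO libraries differed from each other by 0.238.

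The macrophage identity of the label was checked against 15 defining markers. Their summed level was 4570 and 4400 CPM in GATA3-KO cells, 6720 and 4380 CPM in Rictor-KO cells, and 12500 and 12600 CPM in WT cells, a difference that the lysozyme gene Lyz2 led. Csf1r, the receptor for the macrophage growth factor M-CSF, stood at 1207 and 999 CPM in GATA3-KO cells, against 1321 and 1210 CPM in WT cells, and the efferocytosis receptor gene Mertk was at 0 reads in all 4 libraries. Of the 14 markers tested, 10 were lower in GATA3-KO cells and none was higher, with a median of -0.43. Markers of other cells were low: the summed level of 18 T and innate lymphoid markers was 3.12 and 2.89 CPM in GATA3-KO cells, against 4.38 and 5.22 CPM in WT cells. B cell markers summed to 1.84 and 1.60 CPM in GATA3-KO cells, against 0.235 and 0.112 CPM in WT cells. Neutrophil markers summed to 12 and 11 CPM in GATA3-KO cells, against 2.26 and 3.45 CPM in WT cells, with the lipocalin gene Lcn2 as the main contributor in GATA3-KO cells. Mast cell and basophil markers summed to 0.154 and 0.340 CPM in GATA3-KO cells, against 4.14 and 6.26 CPM in WT cells, all of it from Hdc, and dendritic cell markers to 1.79 and 2.09 CPM in GATA3-KO cells, against 4.76 and 4.8 CPM in WT cells. Fibroblast and epithelial markers stayed at or below 0.534 CPM in these 4 libraries. The part of such cells in the results below was not tested. In RNA of whole cultures, fewer cells of a kind and less RNA per cell cannot be told apart.

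The targeted gene was detected at a low level in both genotypes. Gata3 (ENSMUSG00000015619, chromosome 2, 9857078 to 9890034, minus strand, GRCm38) stood at 0.282 and 0.292 CPM in GATA3-KO cells, from 11 and 12 reads, against 1.15 and 1.60 CPM in WT cells, from 39 and 57 reads. The groups did not overlap, and the log2 fold change was -2.25 (SE 0.57, edgeR adjusted p = 0.00388). Rictor-KO cells held 0.707 and 0.331 CPM, between the other genotypes. Counts over a whole gene do not show whether the remaining reads carry the edited sequence. Rictor was lower in GATA3-KO cells as well, at 36.2 and 32.3 CPM, against 60.8 and 63.0 CPM in WT cells (log2 fold change -0.86, SE 0.09, edgeR adjusted p = 3.75e-06). Its level in Rictor-KO cells was 34.3 and 31.2 CPM, so exon counts of Rictor did not set the Rictor-KO line apart from the GATA3-KO line.

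Of the 11808 genes, 6363 (53.9%) differed between GATA3-KO and WT cells under DMSO. Of these, 3167 (26.8%) were higher and 3196 (27.1%) lower in GATA3-KO cells, and 1824 (15.4%) differed at least 2-fold. Over all genes tested the median log2 fold change was 0.01, so the counts of every gene group below stand against a background in which more than every other gene was called.

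Among genes that were higher in GATA3-KO cells, the largest folds belonged to genes that WT cells barely expressed. Cfap69, which encodes a protein of cilia and flagella, had 12.3 and 14.9 CPM in GATA3-KO cells and 0 reads in both WT libraries, so it was at least 316-fold higher against a floor of 3 reads over the WT libraries. Ppfibp2, which encodes the scaffold protein liprin-β2, had 7.58 and 6.90 CPM in GATA3-KO cells and 0 reads in WT cells, a difference of at least 168-fold. Cfap69 was also on in Rictor-KO cells, at 9.98 and 5.61 CPM, whereas Ppfibp2 was at 0 reads there. Such floors cover counting error only.

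A ligand and receptor pair of B cell biology rose together. Tnfrsf13b (chromosome 11, 61126755 to 61149372), which encodes TACI, a receptor for BAFF and APRIL, had 91.0 and 87.3 CPM in GATA3-KO cells, 12.9 and 21.0 CPM in Rictor-KO cells, and 0.235 and 0.253 CPM in WT cells. The WT values rest on 8 and 9 reads, and the log2 fold change was 8.49 (SE 0.45, edgeR adjusted p = 1.03e-06). Tnfsf13b, which encodes the ligand BAFF, had 23.9 and 20.1 CPM in GATA3-KO cells, against 0.588 and 1.29 CPM in WT cells (log2 fold change 4.53, SE 0.32, edgeR adjusted p = 3.76e-07). Cd5, a scavenger receptor family protein of T cells and B-1 cells, had 34.0 and 30.4 CPM in GATA3-KO cells, 2.99 and 2.22 CPM in Rictor-KO cells, and 0.411 and 0.449 CPM in WT cells (log2 fold change of GATA3-KO over WT 6.22, SE 0.23, edgeR adjusted p = 3.57e-10). The defining B cell marker Cd79b was at 1.43 and 1.22 CPM in GATA3-KO cells and at 0 reads in WT cells. Cd79a was at 0.358 and 0.340 CPM in GATA3-KO cells, against 0.0588 and 0.0562 CPM in WT cells, and was not called. Of 12 B cell markers, 5 had an exon read in any library, and only these 2 passed the filter on low counts. Whether a few cells of another kind took part in the rise of these receptors was not tested.

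Other genes among the 15 that rose most had diverse roles. Hao1, a peroxisomal glycolate oxidase, had 68.9 and 73.9 CPM in GATA3-KO cells, 6.75 and 11.9 CPM in Rictor-KO cells, and 0.940 and 0.590 CPM in WT cells (log2 fold change of GATA3-KO over WT 6.54, SE 0.40, edgeR adjusted p = 2.4e-06). The fatty acid binding protein gene Fabp4 had 55.1 and 70.2 CPM in GATA3-KO cells, against 1.94 and 1.57 CPM in WT cells, a log2 fold change of 5.16 (SE 0.71, edgeR adjusted p = 0.000977). The 15, picked for their rise, included glucose carrier genes. Slc5a1, the sodium-coupled carrier, rose by 7.11 (SE 0.32) and Slc2a4, the insulin-responsive GLUT4, by 7.05 (SE 1.1) on the log2 scale. Slc2a1, also a glucose carrier gene, was lower, as was Slc2a6, with values given under other observations. Tnnt2, cardiac troponin T, had 66.2 and 75.6 CPM in GATA3-KO cells, 12.1 and 23.5 CPM in Rictor-KO cells, and 3.06 and 2.39 CPM in WT cells. Nxf7, an X-linked member of the RNA export factor family, set the knockouts apart: it had 43.1 and 46.4 CPM in GATA3-KO cells, 0 and 0.153 CPM in Rictor-KO cells, and 1.68 and 1.74 CPM in WT cells. The AP-1 family factor gene Batf had 12.9 and 15.1 CPM in GATA3-KO cells, against 0.176 and 0.0562 CPM in WT cells, and the kallikrein protease gene Klk8 had 11.1 and 13.3 CPM in GATA3-KO cells, against 0 and 0.169 CPM in WT cells. Mapk12, the p38γ kinase, rose by 5.32 (SE 0.65). Sapcd1 rose by 7.08 (SE 0.39), with 86.3% of its exon reads unique, which leaves its value uncertain.

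The genes with the largest decreases were near or at 0 reads in GATA3-KO cells. Tnc, for tenascin C of the extracellular matrix, had 0 reads in both GATA3-KO libraries, 0.0544 and 0 CPM in Rictor-KO cells, and 40.3 and 52.99 CPM in WT cells, so it was at least 1250-fold lower in GATA3-KO cells than in WT cells. Lyz1, 1 of the 2 mouse lysozyme genes (chromosome 10, 117287797 to 117292868), had 0.0512 and 0.292 CPM in GATA3-KO cells, from 2 and 12 reads, against 1331 and 1305 CPM in WT cells. Its log2 fold change was -12.86 (SE 2.43, edgeR adjusted p = 0.00456), and the Rictor-KO libraries differed widely, at 234 and 18.8 CPM. Its neighbour Lyz2, the lysozyme of macrophages, had 190 and 236 CPM in GATA3-KO cells, 2440 and 616 CPM in Rictor-KO cells, and 5438 and 5505 CPM in WT cells (log2 fold change of GATA3-KO over WT -4.68, SE 0.84, edgeR adjusted p = 0.0036).

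The IL-13 decoy receptor gene Il13ra2 had 0 reads in GATA3-KO cells, 1.22 and 0.0510 CPM in Rictor-KO cells, and 20.9 and 19.2 CPM in WT cells, at least 536-fold lower. The chemokine receptor gene Ccr1 had 0 reads in GATA3-KO cells, against 17.1 and 18 CPM in WT cells, at least 469-fold lower. Olr1, the receptor for oxidised LDL, was at least 212-fold lower, and Crlf2, a subunit of the TSLP receptor, at least 147-fold lower. Tfec, a transcription factor of the MITF and TFEB family, had 0 reads in GATA3-KO and Rictor-KO cells, against 13.02 and 12.8 CPM in WT cells, which is at least 345-fold lower in GATA3-KO cells. The other genes of this kind were the p53-induced Trp53i11, the exon junction gene Magohb, the sialyltransferase gene St6gal1, Tmem26, the claudin gene Cldn11 and the lysyl hydroxylase gene Plod2, with bounds of 380-fold, 260-fold, 218-fold, 200-fold, 174-fold and 152-fold. Gda, guanine deaminase, was at least 517-fold lower, but its call was lost with the replicate number as a block (edgeR adjusted p = 0.102) and without any 1 of the 4 compared libraries or of the WT isorhamnetin libraries (edgeR adjusted p of 0.0541 to 0.0731). The call of St6gal1 was lost with the block (edgeR adjusted p = 0.0981), without either WT DMSO library and without the second GATA3-KO DMSO library (edgeR adjusted p of 0.051 to 0.0592). For the second Gcat locus (Gcat_2), where 0.1% of the exon reads were unique, the bound of 154-fold is uncertain, and its log2 fold change turned to 0.42 (edgeR adjusted p = 0.687) when unique gene reads were used. Its call was also lost with the block (edgeR adjusted p = 0.0746) and without the second WT DMSO library or either GATA3-KO DMSO library (edgeR adjusted p of 0.0753 to 0.0865).

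**Figure D1:**
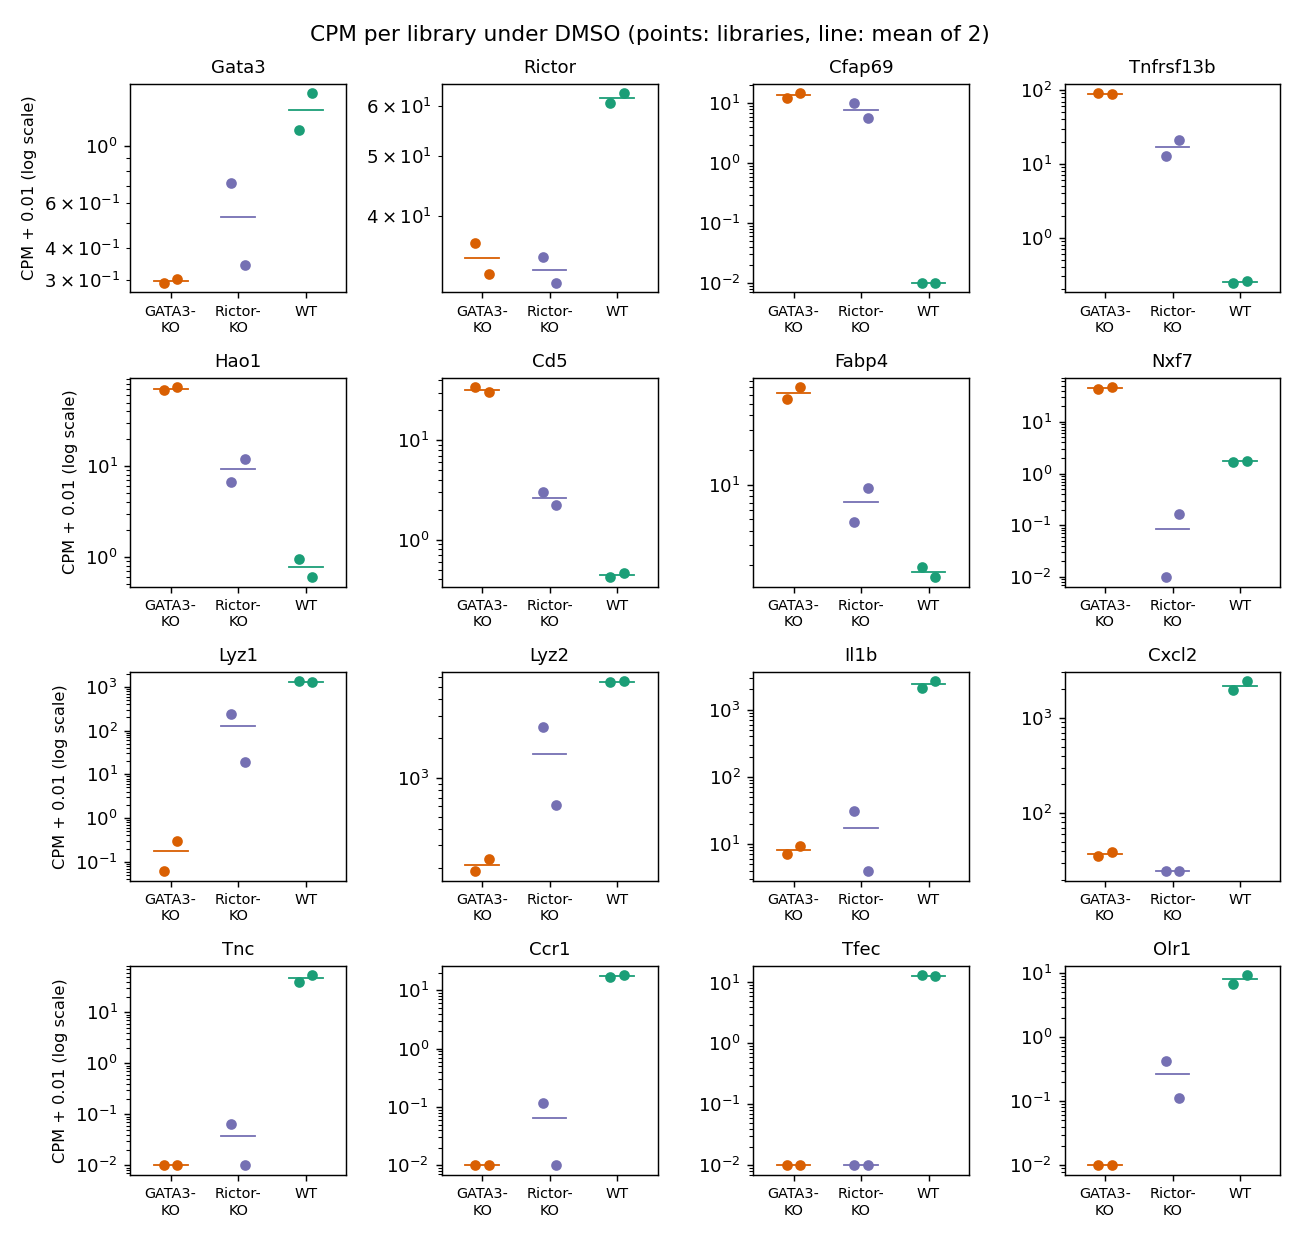
CPM plus 0.01 on a log axis for 16 genes, with GATA3-KO, Rictor-KO and WT libraries under DMSO from left to right. Points are libraries, 2 a group, and lines are their means; Tnfrsf13b, Hao1 and Cd5 were highest in GATA3-KO libraries, and Tnc, Ccr1, Tfec and Olr1 had 0 reads there.

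A set of genes read as off in 1 genotype was counted separately. With unique reads of at least 90%, 18 genes had at most 3 reads over the GATA3-KO DMSO libraries and at least 5 CPM in WT cells, and 2 genes, Cfap69 and Ppfibp2, showed the opposite. Of the 18, 8 also had at most 3 reads in Rictor-KO cells under DMSO, and 12 had at most 3 reads in GATA3-KO cells given isorhamnetin. The level in WT cells given isorhamnetin was not part of that count. Beyond the genes above, the 18 included the collagen gene Col5a3 at 0.0243 CPM in GATA3-KO cells, against 18.8 CPM in WT cells. They also included the lysosomal channel gene Mcoln2 at 0.0256 CPM, against 13.1 CPM. Col5a3 was chosen after its values were seen.

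The promoters of the 3 named genes that rose most and of the 3 that fell most, by fold, are shown because GATA3 binds DNA at GATA sequences. They run from 250 bases before to 50 bases after the RefSeq start, 5′ to 3′ on the strand of the gene, from RefSeq on GRCm38.p6. Capitals mark a GATA sequence, which was searched as AGATAA or AGATAG, and as TGATAA or TGATAG, on both strands. Cfap69 is read from chr5:5664183-5664482 on the minus strand, Ppfibp2 from chr7:107594801-107595100 on the plus strand, and Tnfrsf13b from chr11:61126505-61126804 on the plus strand. Tnc is read from chr4:64046966-64047265, Lyz1 from chr10:117292819-117293118 and Il13ra2 from chrX:147429143-147429442, all on the minus strand.
Cfap69: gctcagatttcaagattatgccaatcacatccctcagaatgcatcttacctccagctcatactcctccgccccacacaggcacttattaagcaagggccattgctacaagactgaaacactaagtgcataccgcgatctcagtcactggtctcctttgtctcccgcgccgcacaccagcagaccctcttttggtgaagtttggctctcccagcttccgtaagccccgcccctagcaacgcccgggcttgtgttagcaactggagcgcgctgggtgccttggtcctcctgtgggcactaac
Ppfibp2: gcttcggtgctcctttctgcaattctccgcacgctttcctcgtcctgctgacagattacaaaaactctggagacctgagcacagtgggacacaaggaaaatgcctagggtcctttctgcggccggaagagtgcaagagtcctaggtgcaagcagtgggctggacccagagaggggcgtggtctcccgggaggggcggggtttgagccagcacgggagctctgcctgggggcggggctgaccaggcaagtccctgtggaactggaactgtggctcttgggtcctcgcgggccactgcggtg
Tnfrsf13b: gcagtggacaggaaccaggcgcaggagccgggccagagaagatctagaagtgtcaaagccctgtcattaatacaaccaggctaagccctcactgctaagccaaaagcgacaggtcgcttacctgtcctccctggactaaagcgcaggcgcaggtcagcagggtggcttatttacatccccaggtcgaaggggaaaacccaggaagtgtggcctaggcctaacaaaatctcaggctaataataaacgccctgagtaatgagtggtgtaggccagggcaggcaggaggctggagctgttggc
Tnc: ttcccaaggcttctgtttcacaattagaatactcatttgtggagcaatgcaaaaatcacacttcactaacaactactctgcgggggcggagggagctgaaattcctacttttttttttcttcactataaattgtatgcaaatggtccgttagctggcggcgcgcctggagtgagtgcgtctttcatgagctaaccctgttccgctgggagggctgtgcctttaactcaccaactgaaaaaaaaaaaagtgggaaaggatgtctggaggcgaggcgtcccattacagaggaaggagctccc
Lyz1: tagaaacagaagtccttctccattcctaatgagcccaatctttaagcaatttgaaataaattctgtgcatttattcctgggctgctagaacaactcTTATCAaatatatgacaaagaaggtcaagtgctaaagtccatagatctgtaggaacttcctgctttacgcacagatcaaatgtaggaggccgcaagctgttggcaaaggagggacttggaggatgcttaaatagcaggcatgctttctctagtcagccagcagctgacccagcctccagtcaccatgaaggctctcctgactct
Il13ra2: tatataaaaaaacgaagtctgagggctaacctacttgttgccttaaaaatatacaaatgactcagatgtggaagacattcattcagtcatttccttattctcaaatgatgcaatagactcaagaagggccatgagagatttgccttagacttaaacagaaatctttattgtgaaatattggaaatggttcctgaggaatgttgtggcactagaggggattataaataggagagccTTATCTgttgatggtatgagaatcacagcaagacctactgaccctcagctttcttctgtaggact

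These windows held 1 GATA match in Lyz1 at position -154 and 1 in Il13ra2 at position -15 from the start, and none in the other 4. A match is a description of letters and no measure of binding. Of the 11808 genes tested, 9370 had a RefSeq promoter, and 1744 of these (18.6%) held a GATA match. The share was 18.4% of the 2547 higher genes with a promoter and 19% of the 2551 lower genes. It was 21.1% of the 603 genes that were higher at least 2-fold, and 23.3% of the 804 that were lower at least 2-fold.

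The inflammatory output of GATA3-KO cells was lower than that of WT cells. Of 15 chemokine genes tested, 13 were lower in GATA3-KO cells and none was higher, against 27.1% of all genes lower, and their median log2 fold change was -4.25 as fitted and -3.20 with genes at 0 reads set to their bound. Cxcl2, a neutrophil-attracting chemokine, had 35.3 and 39.5 CPM in GATA3-KO cells, 24.6 and 24.9 CPM in Rictor-KO cells, and 1948 and 2414 CPM in WT cells (log2 fold change of GATA3-KO over WT -5.87, SE 0.68, edgeR adjusted p = 0.000462). Ccl3, MIP-1α, had 221 and 222 CPM in GATA3-KO cells, against 2457 and 2773 CPM in WT cells (log2 fold change -3.56, SE 0.37, edgeR adjusted p = 0.000192). The monocyte chemoattractants Ccl2 and Ccl9 fell by 6.71 (SE 0.60) and 4.25 (SE 0.28), and the interferon-inducible Cxcl10 fell by 3.05 (SE 0.22), on the log2 scale. Cxcl16, of whose exon reads 83.6% were unique, fell by 0.85.

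Many cytokine genes moved likewise. Of 19 listed genes of inflammatory cytokines and growth factors, 12 were lower and none was higher. Their median log2 fold change was -2.56 as fitted and -1.69 with genes at 0 reads set to their bound. Outside this list, the BAFF gene Tnfsf13b rose, as given above. Csf3, which encodes G-CSF, had 5.17 and 5.81 CPM in GATA3-KO cells, 2.53 and 2.24 CPM in Rictor-KO cells, and 190 and 269 CPM in WT cells (log2 fold change of GATA3-KO over WT -5.38, SE 0.25, edgeR adjusted p = 1.33e-07). Csf2, GM-CSF, fell by 4.66 (SE 0.53), Osm, oncostatin M, by 2.56 (SE 0.18) and Tgfb1 by 1.15 (SE 0.11).

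In the interleukin-1 and inflammasome list, 12 of 16 genes were lower and 2 were higher, with a median of -1.79. Il1b had 6.96 and 9.24 CPM in GATA3-KO cells, 31.2 and 3.93 CPM in Rictor-KO cells, and 2124 and 2639 CPM in WT cells (log2 fold change of GATA3-KO over WT -8.20, SE 1.38, edgeR adjusted p = 0.00275). Il1a, its sister cytokine next to it on chromosome 2, had 0.307 and 0.243 CPM in GATA3-KO cells, from 12 and 10 reads, against 406 and 514 CPM in WT cells (log2 fold change -10.69, SE 0.39, edgeR adjusted p = 1.25e-07). The receptor subunit gene Il1rap fell by 1.39 (SE 0.11) and the inflammatory caspase gene Casp4 by 1.82 (SE 0.16). The 2 that rose were the inflammasome sensor gene Nlrc4, at 10.8 and 12.4 CPM in GATA3-KO cells, against 3.14 and 3.45 CPM in WT cells, and the NLRP3 partner kinase gene Nek7, by 0.62 (SE 0.10).

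Of 21 genes of NF-κB subunits and their feedback inhibitors, 19 were lower and none was higher, with a median of -1.03. Rel, the c-Rel subunit, had 60.3 and 52.7 CPM in GATA3-KO cells, 85.9 and 85.7 CPM in Rictor-KO cells, and 269 and 294 CPM in WT cells (log2 fold change of GATA3-KO over WT -2.32, SE 0.10, edgeR adjusted p = 2.76e-09). Nfkb1 fell by 1.72 (SE 0.10), the deubiquitinase gene Tnfaip3, A20, by 2.19 (SE 0.13), and Tnfaip2 by 3.20 (SE 0.15). Among immediate early factors and MAP kinase feedback genes, 22 of 34 were lower and 3 were higher, with a median of -1.37. Egr3 had 1.90 and 1.22 CPM in GATA3-KO cells, against 15.1 and 12.2 CPM in WT cells, and the growth factor signalling inhibitor Spry2 went the other way, at 22.5 and 21.8 CPM in GATA3-KO cells, against 7.67 and 8.42 CPM in WT cells.

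Interferon-stimulated genes were lower in GATA3-KO cells. Of 48 tested, 45 were lower and none was higher, with a median log2 fold change of -1.61. Ifit1, a binder of foreign RNA, had 3.12 and 3.18 CPM in GATA3-KO cells, 3.59 and 3.93 CPM in Rictor-KO cells, and 21.9 and 22.2 CPM in WT cells (log2 fold change of GATA3-KO over WT -2.80, SE 0.23, edgeR adjusted p = 2.81e-07). The nucleic acid sensor gene Zbp1 fell by 3.68 (SE 0.23) and the antiviral gene Samd9l by 2.02 (SE 0.15). Intron reads, which come largely from unspliced RNA, were lower for 28 of the 39 interferon-stimulated genes with enough of them, and higher for 1, against 16.6% lower and 15.1% higher of all genes tested in introns.

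Promoters of Cxcl2 and Ifit1 are shown as examples of these lists, chosen after their values were seen, from the same RefSeq table and build. Cxcl2 is read from chr5:90903649-90903948 and Ifit1 from chr19:34640639-34640938, both on the plus strand. Capitals mark overlapping matches to the κB consensus in Cxcl2, and in Ifit1 the interferon-stimulated response element, searched as GAAANNGAAA on both strands.
Cxcl2: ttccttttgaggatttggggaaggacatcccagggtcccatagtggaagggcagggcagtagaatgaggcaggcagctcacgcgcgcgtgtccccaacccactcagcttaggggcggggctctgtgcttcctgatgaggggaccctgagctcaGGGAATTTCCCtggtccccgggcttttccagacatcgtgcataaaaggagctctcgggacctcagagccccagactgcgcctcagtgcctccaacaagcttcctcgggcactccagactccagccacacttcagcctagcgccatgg
Ifit1: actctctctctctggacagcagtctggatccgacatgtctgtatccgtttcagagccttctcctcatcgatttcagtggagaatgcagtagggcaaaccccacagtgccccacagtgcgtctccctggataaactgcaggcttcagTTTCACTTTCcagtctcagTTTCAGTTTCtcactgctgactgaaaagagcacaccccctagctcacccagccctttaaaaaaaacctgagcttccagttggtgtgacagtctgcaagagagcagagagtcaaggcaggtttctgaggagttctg

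The element matched at positions -104 and -85 in Ifit1, and in 22 of the 37 interferon-stimulated genes with a promoter (59.5%), against 3.24% of all 9370 promoters. The κB consensus, at -97 and -96 in Cxcl2, was found in 4 of 8 chemokine promoters and 5 of 10 cytokine promoters, against 4.95% of all promoters. Genes of these lists are induced through such elements, as outlined above, so their shares describe the lists and not the genotype difference. The response element was in 4.43% of lower and 3.1% of higher genes with a promoter, the κB consensus in 5.84% and 4.83%. At 2-fold or more, these shares were 8.08% and 2.16%, and 7.21% and 6.14%. The lower genes include members of these lists, and a match is no measure of binding.

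Genes of pathogen sensing were lower too. Of 23 Toll-like receptor and adaptor genes, 16 were lower and 1 was higher, with a median of -0.77; without either of the Rictor-KO isorhamnetin libraries, or with exon length offsets, 2 were higher. The lipopolysaccharide co-receptor gene Cd14 had 549 and 563 CPM in GATA3-KO cells, 316 and 276 CPM in Rictor-KO cells, and 2302 and 2495 CPM in WT cells (log2 fold change of GATA3-KO over WT -2.11, SE 0.18, edgeR adjusted p = 3.52e-06). Tlr2 fell by 1.23 (SE 0.08), the endosomal RNA sensor gene Tlr7 by 1.12 (SE 0.10), and Unc93b1, which carries endosomal Toll-like receptors, by 0.95 (SE 0.11). The 1 gene that rose was Ly86, MD-1, by 0.61 (SE 0.10).

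Surface receptors of macrophages were lower in GATA3-KO cells, and in Rictor-KO cells as well. Relative to WT, Rictor-KO cells had 18 of 26 chemoattractant and migration receptor genes lower and 4 higher (median -2.43). Of the scavenger, phagocytic and complement receptor genes, 14 of 24 were lower there and 3 higher. Of the Fc receptor, TREM and DAP12 signalling genes, 17 of 28 were lower there and 2 higher. The counts that follow are for GATA3-KO over WT. Of 26 chemoattractant and migration receptor genes, 18 were lower and 4 were higher, with a median of -2.30. C5ar1, the complement C5a receptor, had 5.56 and 4.67 CPM in GATA3-KO cells, 1.01 and 0.918 CPM in Rictor-KO cells, and 95.5 and 104 CPM in WT cells (log2 fold change of GATA3-KO over WT -4.29, SE 0.16, edgeR adjusted p = 3.57e-10). The platelet-activating factor receptor gene Ptafr fell by 4.10 (SE 0.20) and the nucleotide receptor gene P2ry6 by 2.17 (SE 0.13). S1pr2, a sphingosine 1-phosphate receptor, rose, with 52.1 and 51.2 CPM in GATA3-KO cells, 36.5 and 36.0 CPM in Rictor-KO cells, and 11.1 and 11.5 CPM in WT cells (log2 fold change of GATA3-KO over WT 2.19, SE 0.09, edgeR adjusted p = 9.13e-10).

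Of 24 scavenger, phagocytic and complement receptor genes, 13 were lower and 3 were higher, with a median of -1.38 as fitted and -1.29 with bounds. The integrin αX gene Itgax, CD11c, had 0.0512 and 0.0486 CPM in GATA3-KO cells, 0 and 0.0255 CPM in Rictor-KO cells, and 34.0 and 39.2 CPM in WT cells, and the GATA3-KO values are close to the floor of 0.0374 CPM. The collectin receptor gene Colec12 had 8.60 and 6.95 CPM in GATA3-KO cells, 115 and 86.5 CPM in Rictor-KO cells, and 325 and 298 CPM in WT cells (log2 fold change of GATA3-KO over WT -5.32, SE 0.19, edgeR adjusted p = 5.38e-09). Of 24 integrins and adhesion molecules, 15 were lower and 5 were higher; the shared β2 chain gene Itgb2 fell by 1.38 (SE 0.11), the integrin αL gene Itgal by 1.83 (SE 0.15), and the tetraspanin gene Cd81 rose by 1.41 (SE 0.09).

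Of 28 Fc receptor, TREM and DAP12 signalling genes, 17 were lower and 2 were higher; without either WT DMSO library, without the second GATA3-KO DMSO library, or with exon length offsets, 1 was higher. The Src family kinase gene Fgr had 1.69 and 1.58 CPM in GATA3-KO cells, 8.57 and 6.60 CPM in Rictor-KO cells, and 183 and 187 CPM in WT cells (log2 fold change of GATA3-KO over WT -6.82, SE 0.25, edgeR adjusted p = 1.01e-08). Fcer1g, the common Fc receptor γ chain, fell by 0.83 (SE 0.07). Trem2, a lipid-sensing receptor of chromosome 17, rose by 1.20 (SE 0.10). Of 20 costimulatory and checkpoint genes, 13 were lower and none was higher, although 1 or 2 were called higher without the first WT DMSO library or without any 1 of the 4 Rictor-KO libraries. Icosl, the ICOS ligand, fell by 5.39 (SE 0.29), Cd200r1, an inhibitory receptor, by 5.29 (SE 0.40), and Cd274, PD-L1, by 2.62 (SE 0.22).

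Genes that set macrophage identity also changed. Of 19 genes of macrophage lineage factors and growth factor receptors, 12 were lower and 3 were higher, with a median of -0.82. Rictor-KO cells relative to WT also had 12 lower and 3 higher, with a median of -0.77. Zeb2, a repressor that keeps tissue macrophage identity, fell by 1.85 (SE 0.11), the GM-CSF receptor gene Csf2ra by 1.78 (SE 0.14), and Mef2c rose by 0.87 (SE 0.09). Of 13 osteoclast-associated genes, 8 were lower and 2 were higher, with a median of -1.75. In Rictor-KO cells relative to WT, 8 of the 13 were lower and 1 was higher, with a median of -2.07. Car2, carbonic anhydrase 2, had 0.358 and 0.486 CPM in GATA3-KO cells, 0.0544 and 0 CPM in Rictor-KO cells, and 52.9 and 47.6 CPM in WT cells.

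Among 20 genes of type 2 cytokine signalling, alternative activation and GATA cofactors, 10 were lower and 4 were higher, with a median of -0.47. This list is the closest to the textbook roles of GATA3, but it shifted likewise in the other knockout line. Rictor-KO cells relative to WT had 11 lower and 4 higher (median -0.50). Against Rictor-KO cells, GATA3-KO cells had 4 lower and 4 higher (median 0.002). Klf4, a factor of alternative activation, had 0.691 and 0.486 CPM in GATA3-KO cells, 2.18 and 3.11 CPM in Rictor-KO cells, and 11.99 and 8.65 CPM in WT cells (log2 fold change of GATA3-KO over WT -4.13, SE 0.28, edgeR adjusted p = 6.68e-08). The IL-33 receptor gene Il1rl1, which GATA3 regulates in T helper 2 cells, fell by 2.02 (SE 0.17), and Stat6, which carries IL-4 and IL-13 signals, by 0.76 (SE 0.09). The 4 that rose were the GATA cofactor genes Tal1, by 0.53 (SE 0.09), and Ldb1, by 0.63 (SE 0.08), the coactivator gene Ppargc1b, by 0.65 (SE 0.15), and the repressor gene Bcl6, by 0.31 (SE 0.11).

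Enzymes of nitric oxide, arginine, itaconate and lipid mediators split, with 10 of 19 lower and 5 higher (3 higher with exon length as an offset). Nos2, inducible nitric oxide synthase, went against the cytokines. It had 77.0 and 61.4 CPM in GATA3-KO cells, 97.9 and 57.4 CPM in Rictor-KO cells, and 8.85 and 11.3 CPM in WT cells (log2 fold change of GATA3-KO over WT 2.78, SE 0.30, edgeR adjusted p = 0.000133). Ass1, which resynthesises arginine for that enzyme, fell by 5.38 (SE 0.40), and the histidine decarboxylase gene Hdc fell by 4.37 (SE 0.73). The other 4 that rose, Ptges2, Pla2g4a, Alox5ap and Lta4h, did so by 0.81, 0.46, 0.25 and 0.32.

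Genes of cell division were higher in GATA3-KO cells under DMSO. In the S phase and DNA replication list, 46 of 50 genes were higher and none was lower, against 26.8% of all genes higher, with a median of 0.67. Tk1, thymidine kinase, had 157 and 172 CPM in GATA3-KO cells, 154 and 125 CPM in Rictor-KO cells, and 40.3 and 37.3 CPM in WT cells (log2 fold change of GATA3-KO over WT 2.09, SE 0.12, edgeR adjusted p = 1.99e-08). Cyclin E1 (Ccne1) rose by 1.33 (SE 0.09) and the dUTPase gene Dut by 1.23 (SE 0.09). Intron reads of these 50 genes were higher for 28 and lower for none, against 15.1% of all genes higher in introns.

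Of 45 genes of G2/M and mitosis, 37 were higher and 4 were lower, with a median of 0.52; without the first WT DMSO library 2 were lower, and without the second GATA3-KO DMSO library 1 was, and with length offsets 35 were higher and 1 was lower. Ccnf, cyclin F on chromosome 17, rose by 1.68 (SE 0.08), the checkpoint genes Mad2l1 and Bub1b by 1.02 (SE 0.11) and 0.82 (SE 0.08), and the kinase gene Aurkb by 0.78 (SE 0.08). Those lower were Cenpf, Cenpe, Ckap2l and the proliferation marker Mki67, which had 442 and 317 CPM in GATA3-KO cells, 766 and 833 CPM in Rictor-KO cells, and 528 and 489 CPM in WT cells. Under isorhamnetin, 8 of the 45 G2/M genes were higher and 15 lower in GATA3-KO cells, with a median of 0.004. In the list of G1 cyclins, CDK inhibitors and p53 targets, 18 of 29 were higher and 5 were lower under DMSO. Cyclin D2 (Ccnd2) had 44.7 and 37.7 CPM in GATA3-KO cells, 0.0544 and 0 CPM in Rictor-KO cells, and 6.49 and 5.70 CPM in WT cells, so the knockouts lay on opposite sides of WT. The BH3-only genes moved both ways: Bbc3 rose by 1.49 (SE 0.17) and Bid by 0.96 (SE 0.08), whereas Bcl2l11 fell by 2.01 (SE 0.15). In the BCL2 family and death list 12 of 26 were lower and 9 higher.

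Differences in genes of translation and respiration were small and depended on whether exon length was corrected for. Of 82 cytosolic ribosomal protein genes, 63 were higher and none was lower, with a median of 0.40; with exon length as an offset the counts were 24 higher and 10 lower, with a median of 0.06, against 2853 higher of all 11808 genes. Of 77 mitochondrial ribosomal protein genes, 50 were higher and 5 were lower, with a median of 0.33. Without the second GATA3-KO DMSO library 28 of these were higher, without the second WT DMSO or the first GATA3-KO DMSO library 3 were lower, and with length offsets 31 were higher and 15 lower, with a median of 0.09. Of 75 nuclear genes of oxidative phosphorylation, 53 were higher and 2 were lower, with a median of 0.39, against 24 and 8, with a median of 0.09, with length offsets. The 2 lower were Ndufa10 and cytochrome c (Cycs, with 69.9% unique reads), and without the second WT DMSO or the first GATA3-KO DMSO library 1 was lower.

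Many of the members with the smallest p lay on chromosome 17. They were the ribosomal protein genes Rpl36, which rose by 0.99 (SE 0.11), Rps28, by 1.15 (SE 0.15), and Rps10, by 0.87 with 30.0% unique reads, and the mitochondrial ribosomal protein genes Mrpl2, Mrpl18 and Mrpl28, by 1.32, 1.27 and 1.30. They also included the complex I genes Ndufv3, by 1.41 (SE 0.10), and Ndufv2, by 0.98 (SE 0.10). Away from that chromosome, Sdhd, a subunit of complex II, rose by 0.94 (SE 0.10) and Rpl22 by 0.76 (SE 0.10).

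Transcripts of the mitochondrial genome were lower in GATA3-KO cells. Of 13 tested, 12 were lower and none was higher, with a median of -1.24. The mitochondrial genes took 0.456% and 0.469% of exon reads in GATA3-KO cells, 0.873% and 1.01% in Rictor-KO cells, and 0.984% and 1.09% in WT cells. mt-Atp6, ATP synthase subunit 6, had 335 and 339 CPM in GATA3-KO cells, 1260 and 1627 CPM in Rictor-KO cells, and 1972 and 1971 CPM in WT cells (log2 fold change of GATA3-KO over WT -2.55, SE 0.12, edgeR adjusted p = 3.49e-09). mt-Co3 fell by 1.71 (SE 0.09), mt-Cytb by 1.65 (SE 0.12) and mt-Nd1 by 1.30 (SE 0.12).

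Cholesterol genes and LXR targets leaned lower. Of 25 genes of cholesterol synthesis and uptake, 14 were lower and 4 were higher (2 with length offsets), with a median of -0.41; the sterol sensor partner gene Insig1 fell by 1.15 (SE 0.12), whereas Acat2, on chromosome 17, rose by 1.21 (SE 0.08). Of 17 LXR targets and cholesterol efflux genes, 10 were lower and 3 were higher, or 1 higher without the second WT DMSO library. Abca1, the main cholesterol exporter of macrophages, had 5.04 and 4.50 CPM in GATA3-KO cells, 20.2 and 10.7 CPM in Rictor-KO cells, and 80.9 and 99.8 CPM in WT cells (log2 fold change of GATA3-KO over WT -4.24, SE 0.35, edgeR adjusted p = 1.89e-05). Lipoprotein lipase (Lpl) fell by 2.04 (SE 0.13). Of 25 fatty acid genes, 9 were lower (36%) and 6 higher (24%), against 27.1% and 26.8% of all genes. With length offsets 8 were lower and 6 higher, and fewer than 9 were lower without the second GATA3-KO DMSO library. Fasn, fatty acid synthase, had 402 and 291 CPM in GATA3-KO cells, against 685 and 727 CPM in WT cells.

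In the lysosome list 18 of 45 were lower and 9 were higher. The channel gene Mcoln2 had 2 reads over the GATA3-KO libraries and was 527-fold lower, with a 95% counting interval of 145 to 4360. The master regulator gene Tfeb, on chromosome 17, rose by 1.65 (SE 0.15). Serine synthesis genes rose within a split list of ATF4 and tRNA synthetase genes (15 of 36 higher, 11 lower): Phgdh by 1.06 (SE 0.08), Psat1 by 0.92 (SE 0.09) and Psph by 1.48 (SE 0.14). Chaperone and unfolded protein response genes of the endoplasmic reticulum were mostly lower, 14 of 25, and 2 were higher, or 1 without either WT DMSO library or without the second GATA3-KO DMSO library. The ubiquitin ligase gene Syvn1 fell by 1.15 (SE 0.09).

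Of 20 genes of iron and metal handling, 11 were lower and 1 was higher (2 without the first GATA3-KO DMSO library, without either Rictor-KO DMSO library, or with length offsets). The endosomal ferrireductase gene Steap3 had 0.871 and 0.535 CPM in GATA3-KO cells, 12.2 and 7.21 CPM in Rictor-KO cells, and 10.7 and 9.44 CPM in WT cells (log2 fold change of GATA3-KO over WT -3.84, SE 0.30, edgeR adjusted p = 3.4e-07). The 1 that rose was the iron exporter gene Slc40a1, ferroportin, at 2.56 and 2.53 CPM in GATA3-KO cells, against 0.235 and 0.281 CPM in WT cells. NRF2 targets were split under DMSO, with 9 of 29 lower and 5 higher, or 3 higher without the second GATA3-KO DMSO library and 2 without the second WT DMSO library. In the list of mTOR complexes, AKT and FoxO, 15 of 32 were lower and 3 were higher, or 1 higher without the second WT DMSO library and 6 higher and 10 lower with length offsets; the mTORC2 subunit gene Prr5 fell by 1.98 (SE 0.30) and the mTORC1 inhibitor gene Akt1s1 by 0.73 (SE 0.09).

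**Figure D2:**
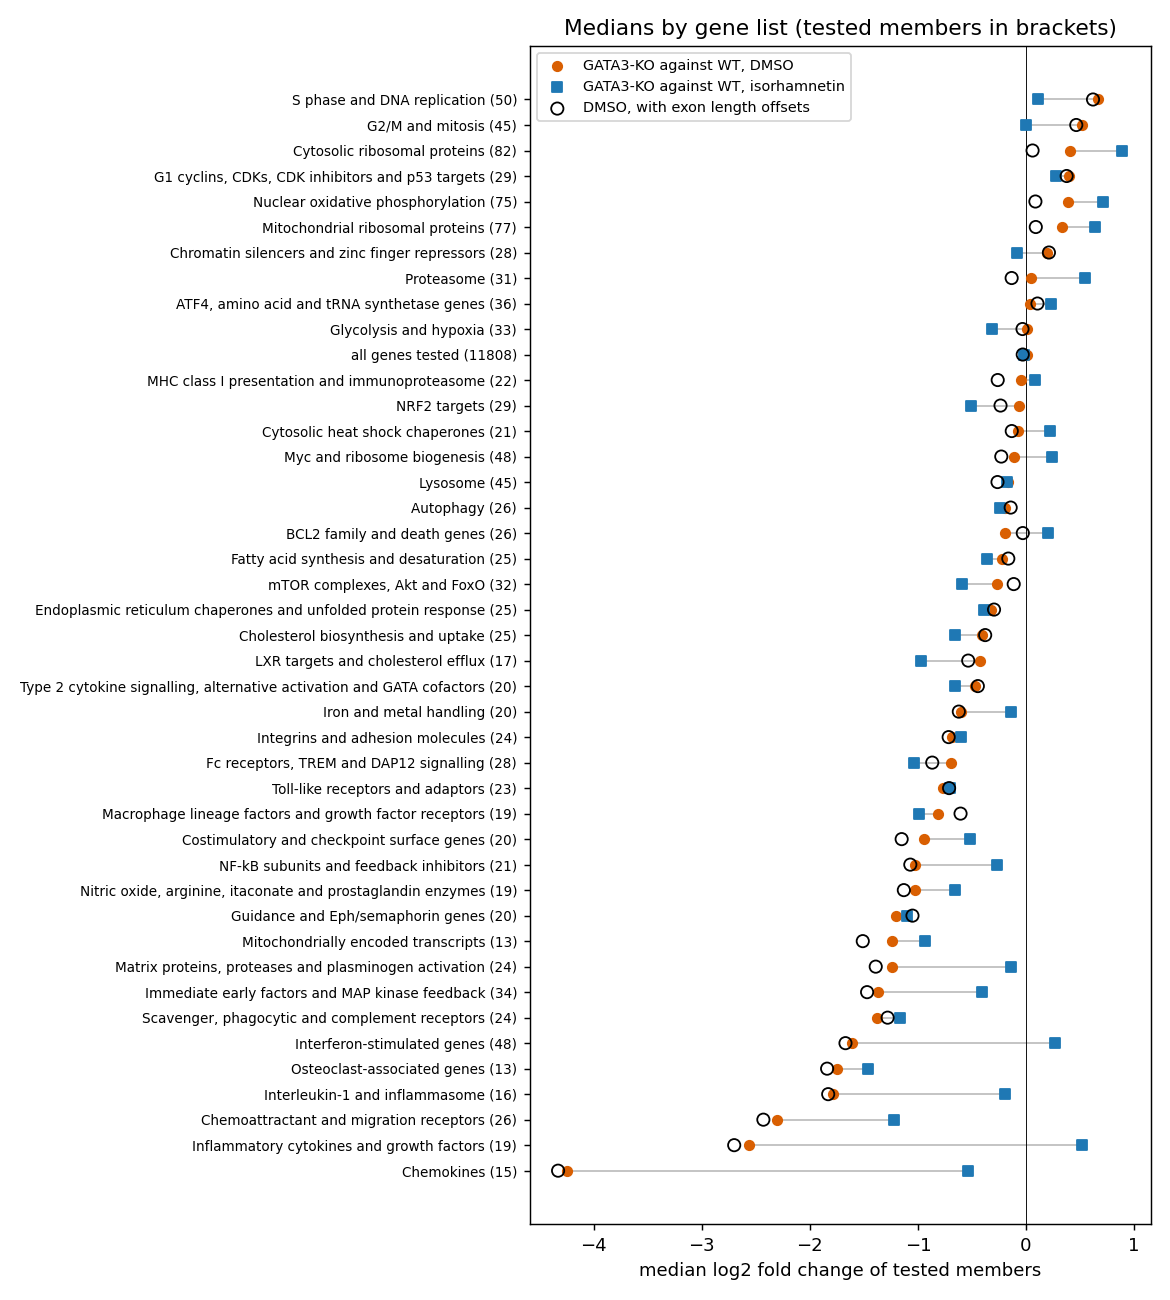
Median fitted log2 fold change of the tested members of the gene lists for GATA3-KO over WT, under DMSO (filled circles), under isorhamnetin (squares) and under DMSO with exon length as an offset (open circles). Chemokines (-4.25) and cytokines (-2.56) had lower medians under DMSO than the -0.54 and 0.52 they had under isorhamnetin, and the fitted values of genes at 0 reads depend on the prior count.

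The same genotypes given isorhamnetin form a comparison that shares no library with that under DMSO. Under isorhamnetin, 7276 genes (61.6%) differed between GATA3-KO and WT cells, 3491 higher (29.6%) and 3785 lower (32.1%). Of the 3167 genes higher under DMSO, 2137 (67.5%) were higher and 194 lower under isorhamnetin. Of the 3196 lower under DMSO, 2322 (72.7%) were lower and 118 higher. Across the 11808 genes, a comparison over genes and not over replicates, the values under both treatments had a Pearson r of 0.723 and a Spearman rho of 0.667.

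**Figure D3:**
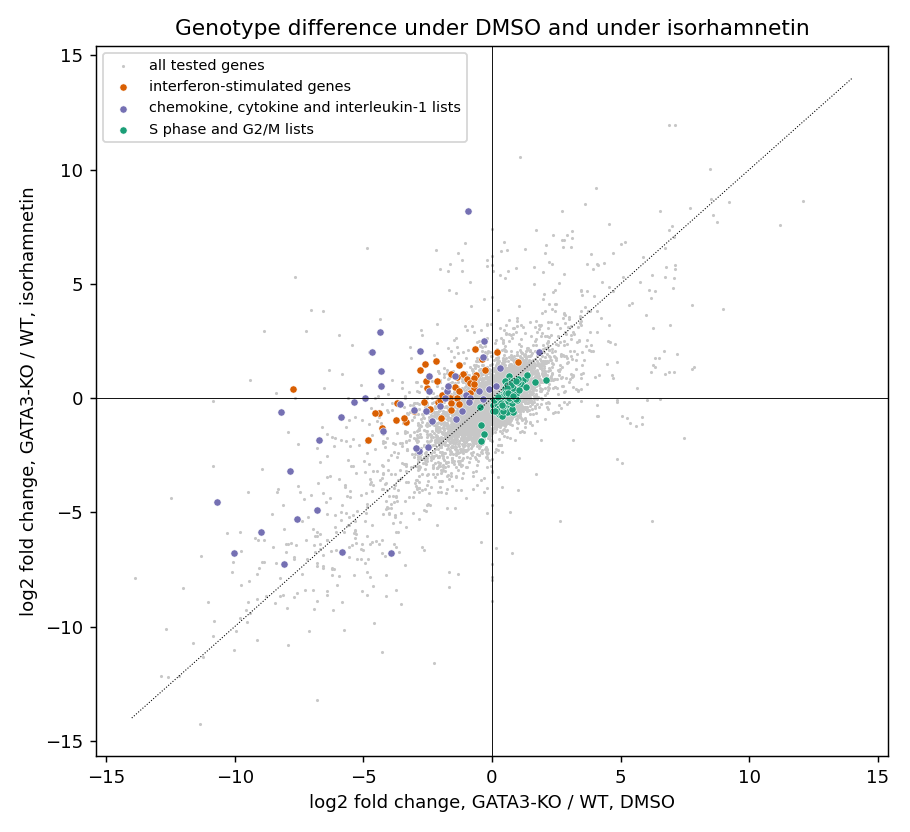
Log2 fold change of GATA3-KO over WT under DMSO (horizontal) and under isorhamnetin (vertical), with a point for each of the 11808 genes tested. The values under both treatments had a Pearson r of 0.723, and 28.0% of the genes passed the interaction test. Many genes of the chemokine, cytokine and interleukin-1 lists sit low on the horizontal axis but nearer 0 on the vertical one. Values of genes with 0 reads in a group depend on the prior count.

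Lyz1 and Tnfrsf13b, each near 0 in 1 genotype under DMSO, were near 0 in the same genotype given isorhamnetin. Lyz1 had 0.0369 and 0.345 CPM in GATA3-KO cells given isorhamnetin, against 854 and 782 CPM in WT cells given it. Tnfrsf13b had 55.5 and 55.9 CPM in GATA3-KO cells, against 0.0505 and 0.0509 CPM in WT cells. The mitochondrial transcript mt-Atp6 had 363 and 430 CPM in GATA3-KO cells given isorhamnetin, against 2027 and 2050 CPM in WT cells given it. Gata3 itself did not pass under isorhamnetin, with 0.498 and 0.460 CPM in GATA3-KO cells, against 0.908 and 0.814 CPM in WT cells (log2 fold change -0.84, edgeR adjusted p = 0.19).

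The difference between genotypes depended on the treatment for 3303 genes (28.0%) by the interaction test, of which 806 (6.83%) passed with a size of at least 2-fold. Its log2 value, the isorhamnetin difference minus the DMSO difference, was positive for 1470 (12.4%) and negative for 1833 (15.5%). Without the second GATA3-KO isorhamnetin library the counts were 731 and 1068, without the second WT isorhamnetin library 744 and 1098, without the second WT DMSO library 767 and 1091, and without the first GATA3-KO DMSO library 896 and 1102. Without the first WT DMSO library 937 were positive. Of 48 interferon-stimulated genes 43 had a positive interaction and none a negative one, and under isorhamnetin 19 were higher and 3 lower in GATA3-KO cells. Il1b had 4.21 and 3.73 CPM in GATA3-KO cells given isorhamnetin, against 10.0 and 2.24 CPM in WT cells given it, so the genotypes overlapped there. Cxcl2 overlapped too, with 38.9 and 47.5 CPM in GATA3-KO cells, against 120 and 31.8 CPM in WT cells. Of the groups given here for Il1b and Cxcl2, the WT DMSO libraries were the high ones. Ribosomal protein genes also had positive interactions, 63 of 82, with 79 higher under isorhamnetin and a median of 0.89 there. With exon length offsets 55 were higher and 5 lower under isorhamnetin, with a median of 0.40. Interactions of this list were not counted with the offsets. S phase genes had negative interactions, 39 of 50, with 22 higher and 14 lower under isorhamnetin. The G2/M list had negative interactions for 31 of 45.

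Of the 6 genes with the smallest interaction p, Lgals9, Tlr13, Lhfpl2, Ifit1 and Plxnd1 are given here. Ifit1 was higher in GATA3-KO cells under isorhamnetin, at 4.26 and 3.11 CPM, against 1.92 and 1.22 CPM in WT cells, and lower under DMSO, as given above. Lgals9, galectin 9, was lower in GATA3-KO cells under DMSO, at 45.5 and 46.2 CPM, against 66.1 and 70.5 CPM in WT cells, and higher under isorhamnetin, at 37.5 and 31.6 CPM, against 12.1 and 10.4 CPM. Tlr13, a receptor for bacterial ribosomal RNA, was at 29.7 and 28.2 CPM in GATA3-KO cells under DMSO, against 35.2 and 31.9 CPM in WT cells. Under isorhamnetin it was at 43.5 and 37.1 CPM in GATA3-KO cells, against 163 and 189 CPM in WT cells. Lhfpl2 was at 25.1 and 25.5 CPM in GATA3-KO cells given isorhamnetin, against 114 and 133 CPM in WT cells, and at 16.6 and 17.04 CPM in GATA3-KO cells under DMSO, against 21.4 and 22.1 CPM in WT cells. The plexin gene Plxnd1 was at 17.8 and 14.9 CPM in GATA3-KO cells given isorhamnetin, against 79.5 and 86.8 CPM in WT cells. Under DMSO the genotypes overlapped for Plxnd1, at 28.2 and 19.3 CPM in GATA3-KO cells, against 19.8 and 16.4 CPM in WT cells, with a log2 fold change of 0.39 (SE 0.16, edgeR adjusted p = 0.0488). That call was lost with DESeq2 (adjusted p = 0.0565), without the first GATA3-KO DMSO library (edgeR adjusted p = 0.625) and without the second WT DMSO library (edgeR adjusted p = 0.297), among other alternatives, and for Lhfpl2 without those same libraries (edgeR adjusted p = 0.0507 and 0.0618).

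Rictor-KO cells under DMSO served as a second knockout line. GATA3-KO against Rictor-KO under DMSO called 3559 genes (30.1%), 1822 higher (15.4%) and 1737 lower (14.7%) in GATA3-KO cells, with 654 (5.54%) at least 2-fold apart, and without the second GATA3-KO DMSO library 964 were higher and 724 lower. Rictor-KO against WT under DMSO called 4729 genes (40.0%), 2283 higher (19.3%) and 2446 lower (20.7%). These comparisons share libraries with that of GATA3-KO and WT, so the values are given side by side. Interferon-stimulated genes were lower for 46 of 48 in Rictor-KO cells relative to WT (median -1.79), chemokines for 13 of 15 (median -3.45), and S phase genes were higher for 50 of 50 (median 0.73). Against Rictor-KO cells, GATA3-KO cells had 10 interferon-stimulated genes higher and 2 lower (median 0.13), and no chemokine gene higher and 2 lower. S phase genes were lower for 12 of 50 and higher for 4 (median -0.01). Other lists, among them those below, had a larger share called. Against Rictor-KO cells, 69 of 82 ribosomal protein genes and 16 of 22 genes of MHC class I presentation were higher in GATA3-KO cells, and none of either was lower. Of 13 mitochondrial transcripts 11 were lower. Of 31 proteasome genes 21 were higher and none lower, and of 25 cholesterol genes 12 were lower and 1 higher. Ribosomal protein genes had a median exon length of 1027 bases and a median log2 fold change of 0.45 against Rictor-KO cells. All tested genes of 204 to 1938 bases had a median of 0.20 in that comparison. The part of exon length in this difference was not tested. Relative to WT, Rictor-KO cells had 1 ribosomal protein gene higher and 5 lower.

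MHC class I genes lie largely on chromosome 17. Of all 333 genes tested there from 20 to 40 Mb, 211 were higher in GATA3-KO than in Rictor-KO cells and 7 lower, with a median of 0.56. The median of the MHC class I list against Rictor-KO cells was 0.51. In GATA3-KO cells relative to WT, 7 of the 22 genes of that list were higher (4 with length offsets) and 10 were lower. The immunoproteasome gene Psmb8 had 162 and 192 CPM in GATA3-KO cells, 44.4 and 52.5 CPM in Rictor-KO cells, and 72.5 and 79.1 CPM in WT cells (log2 fold change of GATA3-KO over WT 1.23, SE 0.11, edgeR adjusted p = 1.06e-06). The peptide transporter gene Tap2 rose by 0.79 (SE 0.10), while Nlrc5, the transactivator of class I genes, fell by 1.56 (SE 0.12). Of 10 MHC class II genes, 4 were higher and 2 lower, or 1 lower without any 1 of the 4 compared libraries; the invariant chain gene Cd74 had 448 and 428 CPM in GATA3-KO cells, 378 and 272 CPM in Rictor-KO cells, and 234 and 223 CPM in WT cells.

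Chromosome 17 stood apart from all other autosomes. Of its 631 genes tested, 373 were higher and 51 lower in GATA3-KO cells, and the median log2 fold change was 0.54, whereas medians of the other autosomes lay between -0.11 and 0.04. The median was 0.53 under isorhamnetin and 0.61 in intron reads under DMSO. The shift did not run evenly along the chromosome when Rictor-KO cells were added. In the 550 genes up to 70 Mb, a boundary chosen after the values were seen, the median was 0.57, a ratio of 1.48, with 323 genes (58.7%) higher and 46 lower. There GATA3-KO cells were also above Rictor-KO cells, with a median of 0.55, and the median of Rictor-KO over WT was -0.00247. In the 81 genes beyond 70 Mb the median was 0.40, a ratio of 1.32, but GATA3-KO and Rictor-KO cells differed there by a median of 0.03, and Rictor-KO cells were above WT by 0.51. Of windows of 20 Mb with at least 20 genes, 4 of the 5 with the largest medians lay on chromosome 17, and the remaining one was chromosome 1 from 140 to 160 Mb, with 29 of 53 genes lower and 7 higher (median -0.51). DNA copy number was not measured.

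**Figure D4:**
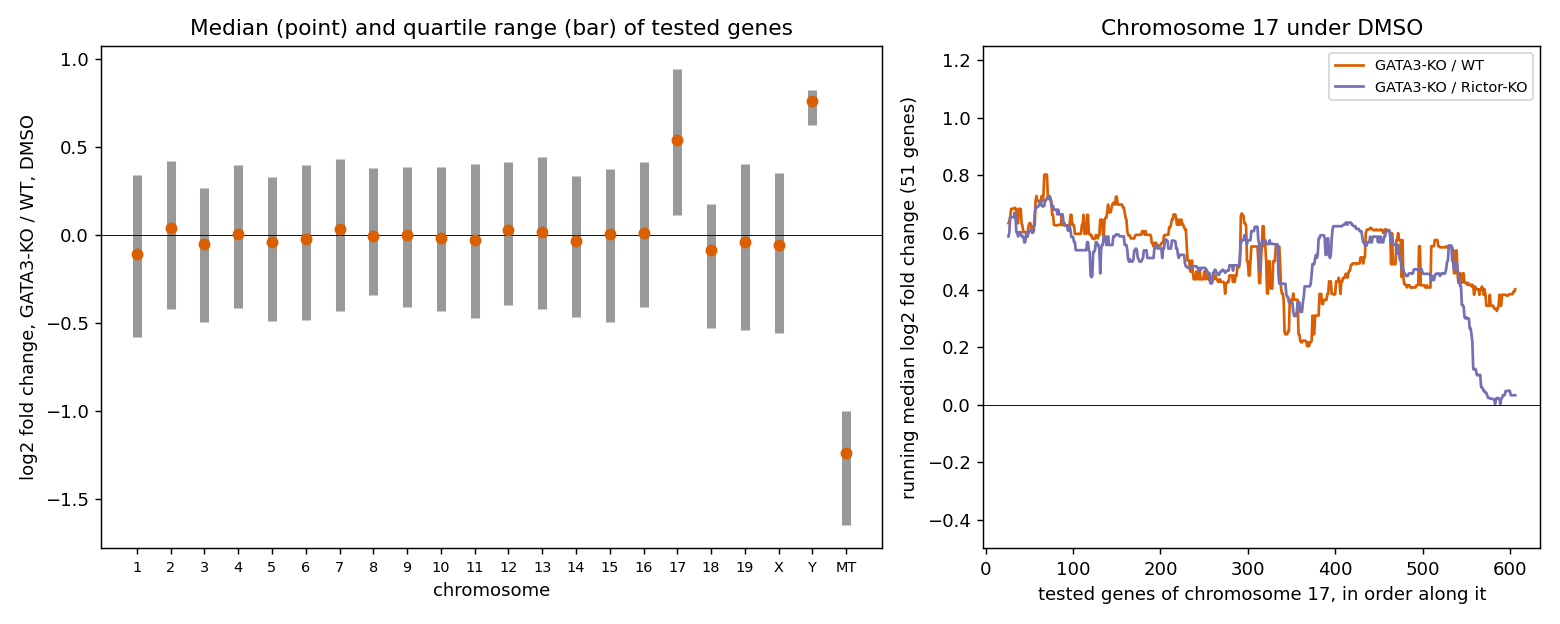
Left, median and quartiles of the log2 fold change of GATA3-KO over WT under DMSO by chromosome. Right, running median over 51 genes in order along chromosome 17, for GATA3-KO over WT and GATA3-KO over Rictor-KO; the median of 0.54 for chromosome 17 lay above all other autosomes, and the lines part near the end of the chromosome.

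Genes of the Y chromosome differed as well. Eif2s3y had 76.9 and 79.3 CPM in GATA3-KO cells, against 42.9 and 38.5 CPM in WT cells, and Kdm5d had 37.0 and 36.3 CPM in GATA3-KO cells, against 21.8 and 20.8 CPM in WT cells. Uty had 24.6 and 26.5 CPM in GATA3-KO cells, against 14.9 and 15.8 CPM in WT cells. Ddx3y had 72.0 and 80.0 CPM in GATA3-KO cells, against 60.6 and 63.4 CPM in WT cells (log2 fold change 0.29, edgeR adjusted p = 0.0227), and its call was lost without the second GATA3-KO DMSO library or either WT DMSO library (edgeR adjusted p of 0.0652 to 0.157). In Rictor-KO cells under DMSO these 4 genes were at 0 to 0.0255 CPM. Whether the lines differ in sex chromosome content was not tested.

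The fold change also went with gene length. With the tested genes split by exon length into 5 groups of like size, the median log2 fold change was 0.24 in the shortest (204 to 1938 bases), then 0.10, 0.02 and -0.08, and it was -0.27 in the longest (5612 to 123179 bases). In the shortest group 935 genes were higher and 320 lower, and in the longest 342 were higher and 1073 lower. The medians of the shortest and longest groups were 0.46 and -0.51 under isorhamnetin, and 0.20 and -0.19 against Rictor-KO cells, whereas Rictor-KO cells over WT gave 0.04 and -0.08. With exon length as an offset, 6154 genes were called, 2853 higher and 3301 lower, and interferon-stimulated genes were 46 lower and none higher, S phase genes 46 higher and none lower.

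**Figure D5:**
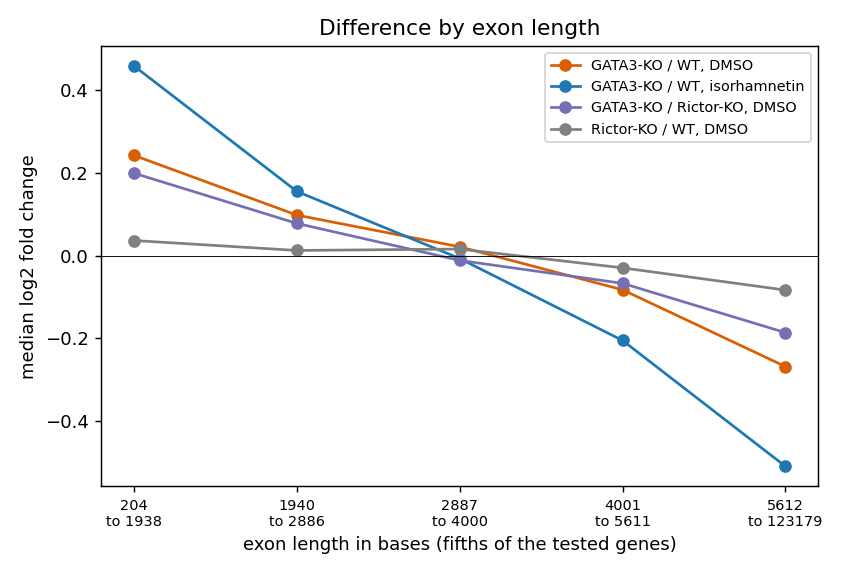
Median log2 fold change in 5 groups of the tested genes by exon length, for GATA3-KO over WT under DMSO and the other comparisons named in the legend. The medians for GATA3-KO over WT under DMSO decline from 0.24 in the shortest group to -0.27 in the longest.

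Intron reads gave a second reading of the same libraries, which took 5.45% and 5.86% of reads in GATA3-KO cells and 6.41% and 7.42% in WT cells. Of 11450 genes with enough intron reads, 3625 (31.7%) differed, 1726 higher (15.1%) and 1899 lower (16.6%), and without the second WT DMSO library 1126 were higher and 1214 lower. Of the genes higher in exon reads, leaving out 157 not tested in introns, 1113 (37.0%) were higher and 65 lower in intron reads. Of those lower in exon reads, leaving out 250, 1292 (43.9%) were lower and 57 higher. Across 10600 genes the exon and intron log2 fold changes had a Pearson r of 0.704. Cxcl2 and Il1b had intron log2 fold changes of -7.12 and -6.55, beside -5.87 and -8.20 in exon reads, while ribosomal protein genes were higher in introns for 9 of 81 and lower for 4.

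Actb, Actg1, Ncl and Eef1a1 were among the 10 named genes with the largest CPM difference. The actin genes Actb and Actg1 stood at 3717 and 3481 CPM, and at 1250 and 1164 CPM, in GATA3-KO cells, against 6382 and 6367 CPM, and 3161 and 3312 CPM, in WT cells. Their log2 fold changes were -0.83 (SE 0.10, edgeR adjusted p = 8.97e-06) and -1.42 (SE 0.13, edgeR adjusted p = 7.05e-07). Nucleolin (Ncl), a nucleolar protein of ribosome production, fell by 0.77 (SE 0.12), in a Myc and ribosome biogenesis list of which 17 of 48 were lower and 4 higher, and 11 lower without the second GATA3-KO DMSO library. The elongation factor gene Eef1a1 rose by 0.31 (SE 0.08, edgeR adjusted p = 0.00488), but its call was lost with length offsets and without the second GATA3-KO DMSO library.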

How the data were processed

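Total RNA of J774.1 cells was sequenced, and the labels' genotype and treatment put the 12 libraries into 6 groups of 2. For every library the authors deposited gene-level read counts (exon, intron and unique reads) and TPM, of which the TPM were not used. Gene positions follow GRCm38, per the submitters' processing notes, while no aligner or counter is given in the sources used here. Among 12371 values of 1 to 4 exon reads, 81.3% were even, so both reads of a pair appear to be counted, and counting intervals and floors, which cover counting error only, are optimistic.

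Total exon reads were fitted with edgeR 4.0.16 in R 4.3.3, with TMM scaling, filterByExpr over the 6 groups, 1 mean per group over all 12 libraries and the robust quasi-likelihood F test, with 6 residual degrees of freedom, a median prior of 8.08 and a common biological coefficient of variation of 0.11. Benjamini-Hochberg adjustment ran over 11808 genes per comparison. Scripts were tested on simulated counts. Alternatives were DESeq2 1.42.0, other scaling, no filter, unique gene reads, the compared libraries alone, the replicate number as a block and leaving out each library. Exon length offsets and scaling without chromosomes 17, Y and MT were added after the data were seen.

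Named genes are Gata3 and Rictor, the 15 that rose and the 15 that fell most by fold (called, mean of at least 2 CPM over the 4 libraries, groups not overlapping, a named symbol), the 10 with the largest CPM difference, up to 4 members of a list by smallest p, and the 6 with the smallest interaction p; some of these are not reported here. The Y-linked genes, and members given because a list had 5 or fewer in a direction, were picked with their values known. The members and the 50 gene lists were chosen with earlier results of these data known, so list counts are descriptions read against the share of all genes called. Genes with under 90% unique exon reads are marked as uncertain. For a group at 0 reads, folds are bounds against 3 reads over that group, and with 1 to 3 reads it is a ratio with a 95% counting interval.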

Additional observations from a re-analysis of the deposited data

Results flagged for a closer look

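The GATA3-KO minus WT difference changed with the treatment for 3303 genes by the interaction test of edgeR, at an adjusted p of 0.05. For the genes given in the report that passed, the values below are the log2 difference under isorhamnetin minus that under DMSO. They were positive for the interferon-linked genes Ifit1 (4.04) and Lgals9 (2.20), and for the inflammatory genes Il1b (7.57), Cxcl2 (5.05), Ccl3 (3.32) and Cd14 (1.66). The elongation factor gene Eef1a1 gave 0.51. They were negative for Tlr13 (-1.91), Lhfpl2 (-1.92), Plxnd1 (-2.74), Sapcd1 (-1.82, uncertain by its unique reads) and Tnfsf13b (-1.33). Slc5a1 (4.86) and Ccr1 (8.09) rest on groups with 0 or few reads, and their size depends on the prior count.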

How the results depend on the processing

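The GATA3-KO against WT comparison under DMSO called 6149 to 6691 genes under the alternatives in tools, filter, reads and scaling, beside 6363, and 6154 with exon length offsets. Leaving out 1 library gave 4986 to 6519 called, 2429 to 3247 higher and 2522 to 3274 lower under DMSO, and 5781 to 7431, 2762 to 3595 and 3019 to 3875 under isorhamnetin. For the interaction the ranges were 1799 to 3523, 731 to 1573 and 1068 to 1951, with 1858 called without the second WT DMSO library, 1842 without the second WT isorhamnetin library and 1998 without the first GATA3-KO DMSO library. Against Rictor-KO cells they were 1688 to 3644, 964 to 1876 and 724 to 1768, and in intron reads 2340 to 2820, 1126 to 1319 and 1214 to 1501. A lone library was then assumed to vary like the other groups. Where these counts moved by more than 1.5 times, the cause was not tested. Scaling by DESeq2 size factors gave 3048 higher and 3310 lower, and scaling without chromosomes 17, Y and MT gave 3323 higher and 3068 lower. Of the named genes, Gcat_2 reversed, to 0.42 with unique gene reads. The replicate numbers did not pair the libraries (correlations of deviations 0.0317, -0.0217 and 0.0265 over 7720 genes), and with the replicate block 6147 genes were called under DMSO, 7067 under isorhamnetin, 3057 for the interaction, 3296 against Rictor-KO cells and 3631 in intron reads. Depth limits the genes listed at 0: 3 reads over a group correspond to 0.0374 CPM in GATA3-KO and 0.0431 CPM in WT cells.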

Other observations

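Other gene groups also differed between GATA3-KO and WT cells under DMSO. Of 28 chromatin silencer and zinc finger repressor genes, 13 were higher and 5 lower in GATA3-KO cells. The heterochromatin gene Cbx3 had 324 and 331 CPM in GATA3-KO cells, against 194 and 178 CPM in WT cells, and the histone methyltransferase gene Suv39h1 rose by 0.75 (SE 0.09). The DNA demethylase gene Tet2 had 48.2 and 48.7 CPM in GATA3-KO cells, 68.0 and 68.1 CPM in Rictor-KO cells, and 130 and 156 CPM in WT cells (log2 fold change of GATA3-KO over WT -1.56, SE 0.12, edgeR adjusted p = 1.29e-07). Of 24 matrix and plasminogen activation genes, 10 were lower and 6 higher; the urokinase receptor gene Plaur had 79.7 and 81.6 CPM in GATA3-KO cells, 55.8 and 75.8 CPM in Rictor-KO cells, and 664 and 716 CPM in WT cells (log2 fold change of GATA3-KO over WT -3.10, SE 0.30, edgeR adjusted p = 0.0001). Among guidance genes 11 of 20 were lower and 4 higher, with the semaphorin receptor gene Nrp2 at 447 and 359 CPM in GATA3-KO cells, against 1142 and 1196 CPM in WT cells.

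Proteasome genes showed little difference under DMSO, with 7 of 31 higher and 3 lower, but 27 were higher and 1 lower under isorhamnetin, against 29.6% of all genes higher there, and 26 had a positive interaction, against 12.4% of all genes. With exon length offsets 15 were higher and 2 lower under isorhamnetin. Without the first WT DMSO library 2 were higher under DMSO, without the second GATA3-KO DMSO library 1 was, and with those offsets 1 was higher and 13 were lower. In the glycolysis and hypoxia list 12 of 33 were lower and 5 higher (3 without the second WT DMSO library); the glucose carrier gene Slc2a1 had 277 and 279 CPM in GATA3-KO cells, 204 and 204 CPM in Rictor-KO cells, and 557 and 554 CPM in WT cells, while Slc2a6 fell by 2.07 (SE 0.14). The siderophore-binding lipocalin gene Lcn2, a neutrophil marker that macrophages also make, had 10.9 and 9.68 CPM in GATA3-KO cells, 0.871 and 0.790 CPM in Rictor-KO cells, and 1.06 and 2.05 CPM in WT cells (log2 fold change of GATA3-KO over WT 2.72, SE 0.30, edgeR adjusted p = 5.05e-06).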
